A study of Mus musculus with 4 samples.

Results

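Expression in immortalized mouse fibroblasts given miR-200c was compared with expression in the same cells given a control miRNA. Both cultures were transfected for 48 h and received 400 µM hydrogen peroxide (H2O2) for the last 2 h before lysis, so every difference below is between peroxide-stressed cultures. Total RNA from each culture was read on a single Illumina bead array. A gene entered the comparison when the probe representing it was detected (detection p-value under 0.01) in either array, which held for 7464 of the 17711 genes named on the array. Of these, 6644 were detected in both arrays, 345 with miR-200c only and 475 with control miRNA only. The series had 4 arrays in all, and the others came from fibroblasts given miR-141 and from fibroblasts given the transfectant alone, with the same peroxide treatment. Their values are set beside those of the compared arrays. The labels do not name the fibroblast line, say whether it is a clone, or state which strand of the miRNA precursor was delivered. One description field calls the miR-200c sample miR-200, while its title and transfection field give miR-200c. With 1 array per group there is no replicate error, so no test could be made and no p-value is given for any difference.

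MicroRNAs guide a silencing complex to messenger RNAs that pair with the seed near their 5′ end, and paired transcripts are translated less and decay faster. The miR-200 family is abundant in epithelia and scarce in fibroblasts and other mesenchymal cells. Its best known targets are the transcription factors ZEB1 and ZEB2, which bind E-box motifs in the promoters of epithelial genes and repress them, and which in turn repress the genes of the family. The labels give miR-200c without an arm. The mature sequences of the 3p arms of the family are therefore shown, from RefSeq on GRCm38.p6, with the seed (bases 2 to 8) in capitals, because the seed decides which transcripts can pair:
mmu-miR-200c-3p: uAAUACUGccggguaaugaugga
mmu-miR-200b-3p: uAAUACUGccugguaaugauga
mmu-miR-429-3p: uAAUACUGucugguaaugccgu
mmu-miR-141-3p: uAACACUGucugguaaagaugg
mmu-miR-200a-3p: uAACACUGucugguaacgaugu
The first 3 share the seed AAUACUG and the others the seed AACACUG. Counted from the 5′ end, miR-141-3p differs from miR-200c-3p within the seed by U4C and outside it by C9U, G11U and U17A. It also lacks the final base of miR-200c-3p. miR-200b-3p differs from miR-200c-3p only outside the seed, by G11U and G22A, and lacks its final base. The mature miR-200c-3p lies at chr6:124718324-124718346 on the minus strand and miR-141-3p at chr6:124717917-124717938 on the same strand.

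The cells carried some of the transcripts that define fibroblasts. Of 14 fibroblast markers on the array, 5 were detected with miR-200c and 6 with control miRNA. Vimentin, type I collagen alpha 1, fibronectin, S100a4 and decorin were detected in both arrays and Pdgfrb with control miRNA only. Col1a2, Col3a1, Thy1, Pdgfra, Fap, Lum, Postn and Sparc were below detection in both. Of 11 epithelial markers, 4 were detected with miR-200c (Krt7, Krt8, Krt19 and Cldn4) and 1 with control miRNA (Krt19). The summed normalized signal of the 11 was 1027 with miR-200c and 303 with control miRNA. Both sums include markers below detection, which with control miRNA were all but Krt19, so their ratio is not read as a fold. The 14 fibroblast markers summed to 12600.6 with miR-200c and 17322.5 with control miRNA. Cdh1, Epcam, Krt5, Krt14, Krt18, Cldn3 and Cldn7 were below detection in both. The leukocyte markers had 1 of 8 detected in each array (Cd14), and the endothelial markers 1 of 6 (Kdr). Muscle, fat and nerve markers had 3 of 9 detected with miR-200c (Adipoq, Map2 and Syp) and 3 with control miRNA (Actc1, Adipoq and Map2). In RNA from a whole culture, fewer cells of a type and less RNA per cell cannot be told apart. The median raw signal, which lies near background, was 43.1 with miR-200c and 42.8 with control miRNA. The mean raw signal differed more, at 190.5 with miR-200c and 150.9 with control miRNA, and normalization made the distributions equal. With miR-200c 6989 genes were detected and with control miRNA 7119.

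A gene was called higher or lower when its log2 difference, miR-200c minus control miRNA, reached 0.585 in size (1.5-fold). By this size 510 genes were higher with miR-200c, 6.83% of those compared, and 514 were lower, 6.89%. The larger differences were fewer, with 140 genes at least 2-fold higher and 134 at least 2-fold lower. Of the genes called, 342 higher and 375 lower ones were detected in both arrays. The other 168 higher and 139 lower ones were detected in 1 array. Of these, 66 higher and 40 lower ones reached 1.5-fold when the value below detection was set to its bound. The median difference over all 7464 genes was -0.006, and among genes detected in both arrays the central 90% lay between -0.62 and 0.59. For scale, the control miRNA array set against the transfectant array, neither with a family member, had 237 genes higher (3.16%) and 339 lower (4.51%) among 7509, 7.67% together, where miR-200c against control miRNA had 13.7%. Over genes detected in both arrays of each pair, the standard deviation of the difference was 0.40 for miR-200c minus control miRNA and 0.30 for control miRNA minus transfectant only. Dim genes passed the size more often than bright ones. Of the dimmest 2488 genes 19.7% passed it, of the middle 2488 genes 13.8%, and of the brightest 2488 genes 7.64%, and between the controls the shares were 14.1%, 6.23% and 2.68%. How much of a count is probe noise was not tested. Of the genes called, 293 of the 510 higher and 329 of the 514 lower ones also differed by 1.5-fold, the same way, from transfectant only, and 17 higher and 22 lower ones had the opposite sign there. Members of the lists below that lost the call there are named.

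**Figure D1:**
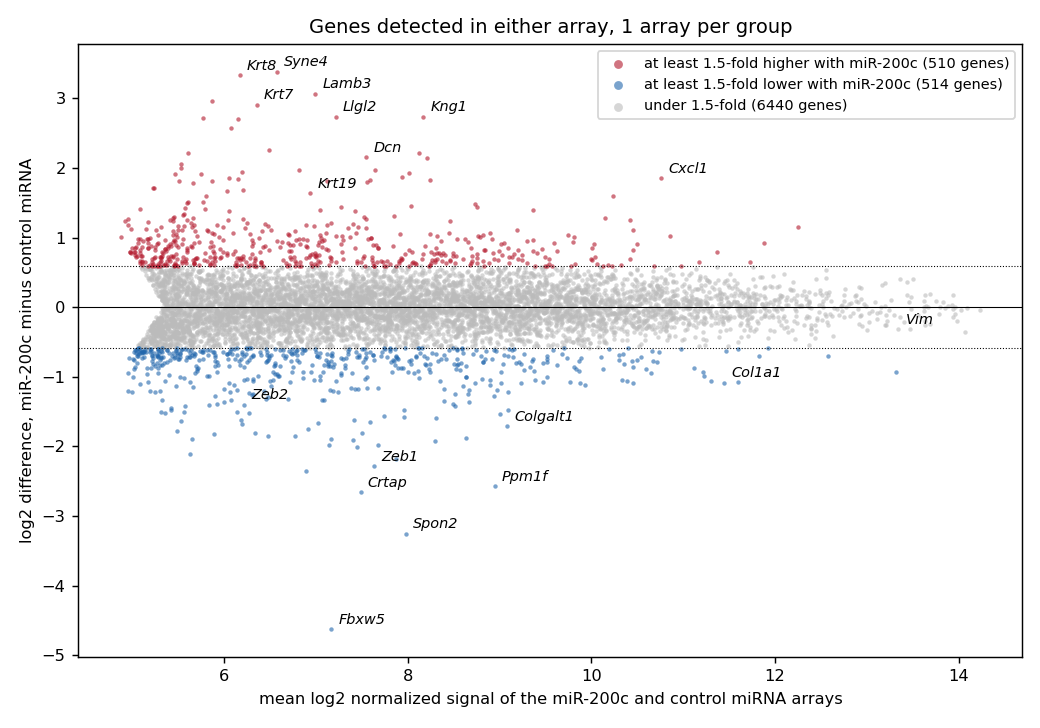
Log2 difference (miR-200c minus control miRNA) against the mean log2 normalized signal of both arrays for the 7464 genes compared, 1 array per group, with dotted lines at 0.585 and -0.585. Red points are the 510 genes at least 1.5-fold higher, blue points the 514 genes at least 1.5-fold lower and grey points the 6440 others, and the spread narrows toward bright genes.

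Transcripts published as targets of the miR-200b, miR-200c and miR-429 seed were among the lowest. They made up 6 of the 15 largest downward differences of genes detected in both arrays. Of 37 such genes on the array 24 were compared, and 12 of these were lower and 1 higher, against 6.89% and 6.83% of all genes. Their median difference was -0.61, against -0.006 over all genes, or -0.35 when values below detection were set to their bound. The list was written from the literature with results of these data known.

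Crtap encodes a partner of prolyl 3-hydroxylase on newly made collagen. Its log2 signal was 6.16 with miR-200c, against 8.94 with miR-141, 8.81 with control miRNA and 8.94 with transfectant only. The other 3 arrays lay within 0.13 of each other, and the miR-200c array stood 6.29-fold below control miRNA. Ppm1f, a phosphatase that acts on p21-activated kinases, was at 7.66 with miR-200c, against 10.07 with miR-141, 10.23 with control miRNA and 10.18 with transfectant only, a 5.94-fold difference from control miRNA. Sec23a, a subunit of the coat of vesicles leaving the endoplasmic reticulum, was at 6.45 with miR-200c, against 8.31 with miR-141, 8.45 with control miRNA and 8.23 with transfectant only. Fhod1, a formin that assembles actin filaments, was at 6.68 with miR-200c, against 8.37 with miR-141, 8.66 with control miRNA and 8.45 with transfectant only. For these genes the miR-200c array was low and the 3 others were close together. Flt1, which encodes VEGF receptor 1, was at 6.78 with miR-200c, against 8.60 with miR-141, 8.97 with control miRNA and 9.25 with transfectant only.

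Zeb1 and Zeb2 were also low with miR-141, whose seed differs. Zeb1 was at 6.50 with miR-200c, against 7.64 with miR-141, 8.78 with control miRNA and 9.05 with transfectant only. Zeb2 was at 5.51 with miR-200c, against 5.63 with miR-141, 6.91 with control miRNA and 6.95 with transfectant only. Both members of this repressor pair were lower with miR-200c than with control miRNA, by 4.86-fold for Zeb1 and 2.64-fold for Zeb2. Under the alternatives tried, the difference ranged from -2.56 to -1.86 for Zeb1 and from -1.44 to -0.89 for Zeb2.

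The next published targets had smaller differences. Vash2, a tubulin carboxypeptidase subunit, stood at -1.18, the membrane to actin linker Msn at -1.05 and the transcription factor Klf9 at -0.74. Msn had 3 further detected probes, with differences of -0.17, -0.38 and -1.70. Klf9 was at 9.0 with miR-200c and lower still with miR-141, at 8.60, against 9.74 with control miRNA. The cofilin gene Cfl2 was below detection with miR-200c and at least 1.26-fold lower. The phosphatase gene Ptpn12 was likewise below detection there and at least 1.42-fold lower. Tubb3, a neuronal tubulin, was the member called higher, and it was below detection with control miRNA. The 11 members under 1.5-fold ranged from Ptpn13 at -0.51 to Dnmt3b at 0.25 and included Fn1 at -0.33, Vegfa at -0.10, Kdr at 0.03 and Bmi1 at 0.15.

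**Figure D2:**
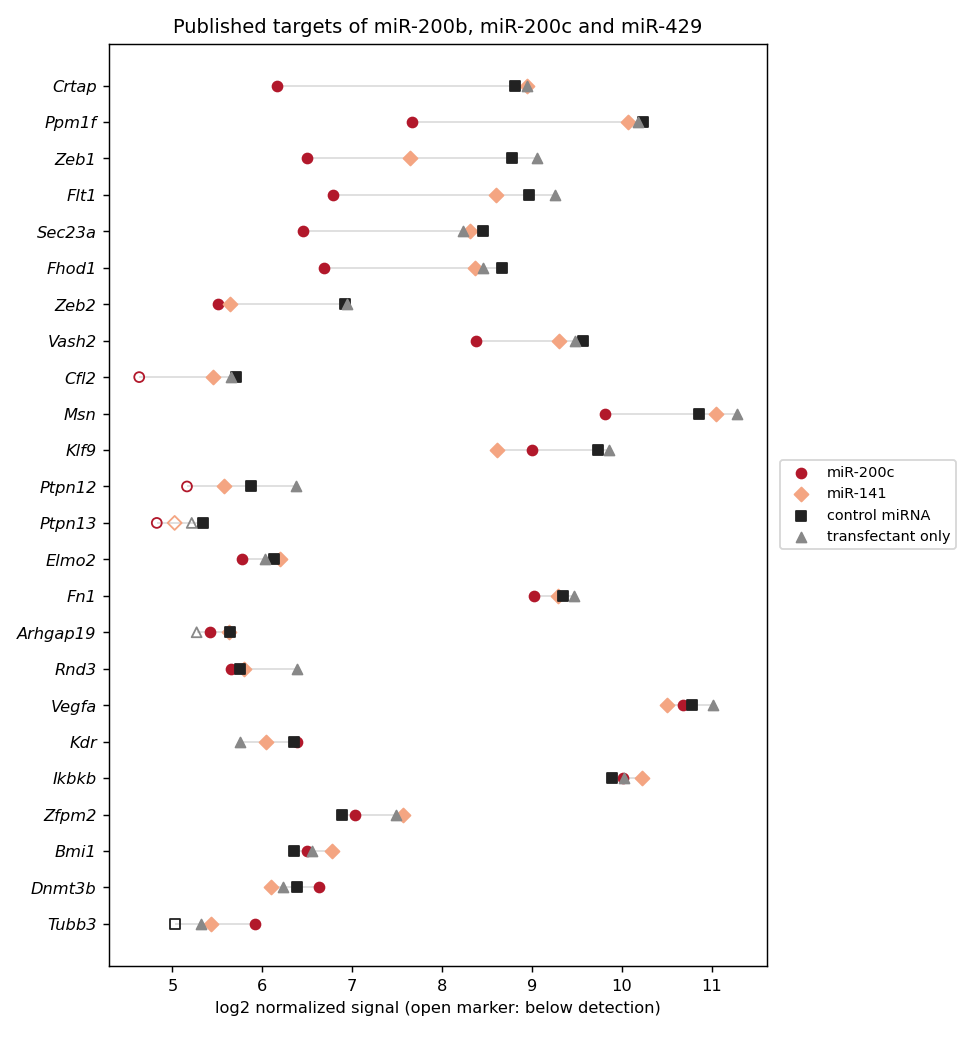
Log2 normalized signal of the 24 compared published targets of the miR-200b, miR-200c and miR-429 seed in the 4 arrays, 1 array per group, ordered by the difference between miR-200c and control miRNA, with open markers below detection. From Crtap to Fhod1 the miR-200c marker stands apart to the left, at 6.16 against 8.81 in control miRNA for Crtap.

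Collagen genes were lower as a group. Of 21 collagen chain genes on the array 13 were compared. Among these 7 were lower (53.8%, against 6.9% of all genes) and 0 higher, with a median difference of -0.69. Col1a1, the main chain of fibrillar collagen in connective tissue, had a log2 signal of 10.90 with miR-200c, against 11.99 with control miRNA and 11.59 with transfectant only. Col5a1, a chain that nucleates fibrils, was at 10.77 with miR-200c and 11.84 with control miRNA. The microfibrillar chains Col6a1 and Col6a2, encoded by neighbouring genes, differed by -1.21 and -1.12, and a further detected probe of Col6a1 gave -1.31. Col16a1 stood at -1.35, and the basement membrane chains Col4a5 and Col4a2 at -0.80 and -0.69. Against transfectant only Col4a2 stood at -0.37, under 1.5-fold. The 6 chains that did not reach the size ranged from Col4a1 at -0.48 to Col5a2 at 0.50.

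Genes whose products fold, modify and crosslink collagen leaned the same way. Among 25 compared, 10 were lower (40.0%) and 1 was higher (4.0%), against 6.9% and 6.8% of all genes, and the median was -0.42. Beside Crtap, 2 genes of the prolyl 3-hydroxylase family were lower, namely P3h4 at -0.92 and P3h1, which was below detection with miR-200c and at least 1.72-fold lower. Colgalt1, which glycosylates collagen hydroxylysine, was at 8.22 with miR-200c and 9.94 with control miRNA, a difference of -1.71. The prolyl isomerase genes Fkbp14 and Fkbp11 stood at -0.88 and -0.83. Fkbp7, of the same family, was below detection with miR-200c and at least 2.49-fold lower. Of the lysyl oxidases, which crosslink collagen, Lox was lower at -1.08 and Loxl4 was higher at 0.97. Lox was at 6.18 with miR-200c, 7.25 with control miRNA and 8.29 with transfectant only, so the controls themselves differed by about as much. P4ha1, at -0.72, and Loxl2, at -0.60, stood at only -0.15 and -0.18 against transfectant only. The collagen chaperone gene Serpinh1 was at -0.24, and Plod2, a lysyl hydroxylase gene, at -0.03.

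Of 28 proteoglycan and matrix glycoprotein genes, 9 were lower (32.1%) and 2 higher (7.1%), against 6.9% and 6.8% of all genes (median -0.33). Spon2, which encodes a secreted matrix protein, had the largest downward difference of any gene detected in both arrays. It was at 6.35 with miR-200c, against 7.84 with miR-141, 9.61 with control miRNA and 9.86 with transfectant only. Next in this list came the elastic fibre gene Emilin1 at -1.62, the syndecan gene Sdc3 at -1.09, the CCN family genes Ccn5 and Ccn4 at -0.81 and -0.76, and the small proteoglycan biglycan (Bgn) at -0.71. Fbln2 at -0.60 and Tnc at -0.59 passed narrowly, and Ogn, below detection with miR-200c, was at least 1.04-fold lower and stood at -0.01 against transfectant only. Decorin (Dcn), a small proteoglycan closely related to biglycan, went the other way. Dcn was at 8.62 with miR-200c, against 7.21 with miR-141, 6.47 with control miRNA and 7.25 with transfectant only, and 2 further probes gave differences of 2.04 and 1.21. Gpc4 was the other one called higher, below detection with control miRNA, and it stood at -0.31 against transfectant only. Of 17 matrix proteases and inhibitors, 5 were lower (29.4%) and 1 higher (5.9%, median -0.29). The lower ones were the inhibitor Timp1 at -0.93, Adam15 at -0.87, the gelatinase Mmp2 at -0.76, the plasminogen activator Plat at -0.70 and Adamts4 at -0.59, and Mmp10 was higher at 0.61. Adam15 and Adamts4 stood at -0.57 and -0.56 against transfectant only, under 1.5-fold.

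Of 23 transcription factors and markers of mesenchyme on the array 12 were compared. Among these 7 were lower (58.3%, against 6.9% of all genes) and 0 higher (median -0.75). The lower ones included Zeb1 and Zeb2, which were also counted among the published targets. The others were the T-box factor Tbx3, the calcium-binding protein gene S100a4, the homeobox factor Prrx1, the E-protein Tcf4 and the PDGF receptor gene Pdgfrb. Tbx3 was at 6.22 with miR-200c and 8.12 with control miRNA. S100a4 was at 7.99 with miR-200c and 9.35 with control miRNA. Prrx1 stood at -0.76, but its 3 further probes gave -0.84, -0.29 and 0.28. Pdgfrb was below detection with both family members and at least 2.25-fold lower with miR-200c than with control miRNA. The abundant intermediate filament gene Vim was at 13.18 with miR-200c and 13.50 with control miRNA, under 1.5-fold. Twist1 stood at -0.47, Twist2 at -0.41 and N-cadherin (Cdh2) at -0.09.

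Of 44 actin dynamics genes, 8 were lower (18.2%) and 2 higher (4.5%, median -0.15), against 6.9% and 6.8% of all genes. The lower ones beside Ppm1f, Fhod1, Cfl2 and Msn were the profilin gene Pfn2 at -0.92, the integrin activator talin (Tln1) at -0.96, the small GTPase gene Rhob at -0.60 and Wipf1, a partner of N-WASP, which was below detection with miR-200c and at least 1.18-fold lower. Ezrin (Ezr), which like moesin links membrane to actin, was higher. Ezr was at 11.01 with miR-200c, against 10.82 with miR-141, 9.90 with control miRNA and 10.40 with transfectant only. Ssh3, a cofilin phosphatase gene, was the other one called higher, and against transfectant only it stood at -0.01. Of 17 contractile genes 3 were lower (17.6%, against 6.9% of all genes), namely smooth muscle actin (Acta2) at -0.93, Cnn3 at -0.70 and Actg2 at -1.18, while Actb was at 0.02. Acta2 was among the brightest genes, at 12.86 with miR-200c, against 13.86 with miR-141, 13.78 with control miRNA and 13.79 with transfectant only. Of 17 integrin and focal adhesion genes 17.6% were lower and 11.8% higher, against 6.9% and 6.8% of all genes. The endocytic adaptor Dab2 at -1.91, Fermt2 at -0.79 and Itga11, at least 1.82-fold, were lower, and Itgav, at 0.69, and Tns1 were higher. Tns1 stood at 0.10 against transfectant only.

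Of 34 vesicle coat and secretory pathway genes 4 were lower (11.8%) and 0 higher, against 6.9% and 6.8% of all genes. Their median, -0.05, lay close to that of all genes. The lower ones were Sec23a, the retrieval receptor gene Kdelr3 at -1.48, the SNARE gene Gosr2 at -0.88 and Arfgap1 at -0.69. Sec23b, the paralog of Sec23a, stood at 0.43, and other coat subunits such as Sec13, Sec24b and Sec24c at -0.22, -0.07 and -0.05.

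Genes typical of epithelium were among the highest. Of 33 keratins and other epithelial markers on the array only 7 were compared, since the other 26 were below detection in both arrays, and 5 of the 7 were higher. Of these, 3 were detected with miR-200c only and were compared only through that array, so the count does not describe the list. Under 1.5-fold were Muc1 at 0.39, below detection with control miRNA, and Itgb6 at -0.45, below detection with miR-200c. Lamb3, a chain of the epithelial laminin 332, was at 8.52 with miR-200c, against 8.07 with miR-141, 5.46 with control miRNA and 5.0, below detection, with transfectant only. Krt8, a keratin of simple epithelia, was at 7.83 with miR-200c and 6.18 with miR-141, and below detection in both controls, at least 5.66-fold higher than in control miRNA. Krt7 was at 7.81 with miR-200c and 6.10 with miR-141 and was likewise below detection in the controls. Krt19 was detected in all 4 arrays, at 7.76 with miR-200c, 6.43 with miR-141, 6.12 with control miRNA and 5.70 with transfectant only. Spint1, a serine protease inhibitor of epithelial surfaces, was at least 3.14-fold higher. Krt18, the usual partner of Krt8, was below detection everywhere, as was E-cadherin (Cdh1).

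Of 34 junction and polarity genes on the array 15 were compared. Among these 6 were higher and 0 lower, against 6.8% and 6.9% of all genes, with a median of 0.05. The other 9 lay between -0.49 and 0.42. Of the higher ones, Cldn4, Map7 and Scrib were below detection with control miRNA and were compared only through the miR-200c array. Over the 11 members detected in both arrays the median was -0.07. Llgl2, a polarity gene, was at 8.58 with miR-200c, against 7.35 with miR-141, 5.85 with control miRNA and 5.65 with transfectant only, a 6.65-fold difference from control miRNA. Cldn4, a tight junction protein, was at least 4.51-fold higher and Map7, which stabilizes microtubules, at least 4.08-fold, both below detection in both controls. Plakoglobin (Jup) was higher at 0.89, Cldn12 at 0.66 (0.34 against transfectant only) and Scrib by at least 1.35-fold, while Tjp1 was at -0.11 and Cldn1 at 0.05.

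Several of the genes with the largest upward differences belonged to none of these lists. Syne4, which encodes the nuclear envelope protein nesprin-4, was at 8.27 with miR-200c and 7.48 with miR-141 and below detection in both controls, at least 7.65-fold higher. Ckmt1, a mitochondrial creatine kinase, was at least 4.05-fold higher. Kng1, which encodes kininogen, was at 9.54 with miR-200c, against 7.72 with miR-141, 6.80 with control miRNA and 6.86 with transfectant only. Psca, a cell surface antigen, stood at 2.21. Stxbp2 at 2.15 and Stx3 at 1.82 encode partners in vesicle fusion at the apical membrane of epithelia, and a further probe of Stx3 gave 1.41. Tmem130, at 1.82, was at 8.03 with miR-200c and close to it with miR-141, at 7.90, against 6.22 with control miRNA and 6.23 with transfectant only. Ifnlr1, the interferon lambda receptor chain, stood at 1.88, Arhgap44 at 1.93, Surf6 at 1.97, Fam102a at 1.97 and Ccdc120 at 1.82. Cnksr1, a scaffold of Ras signalling, was at least 3.58-fold higher and Lrba at least 3.34-fold. In all of these genes the miR-200c array was the highest of the 4.

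**Figure D3:**
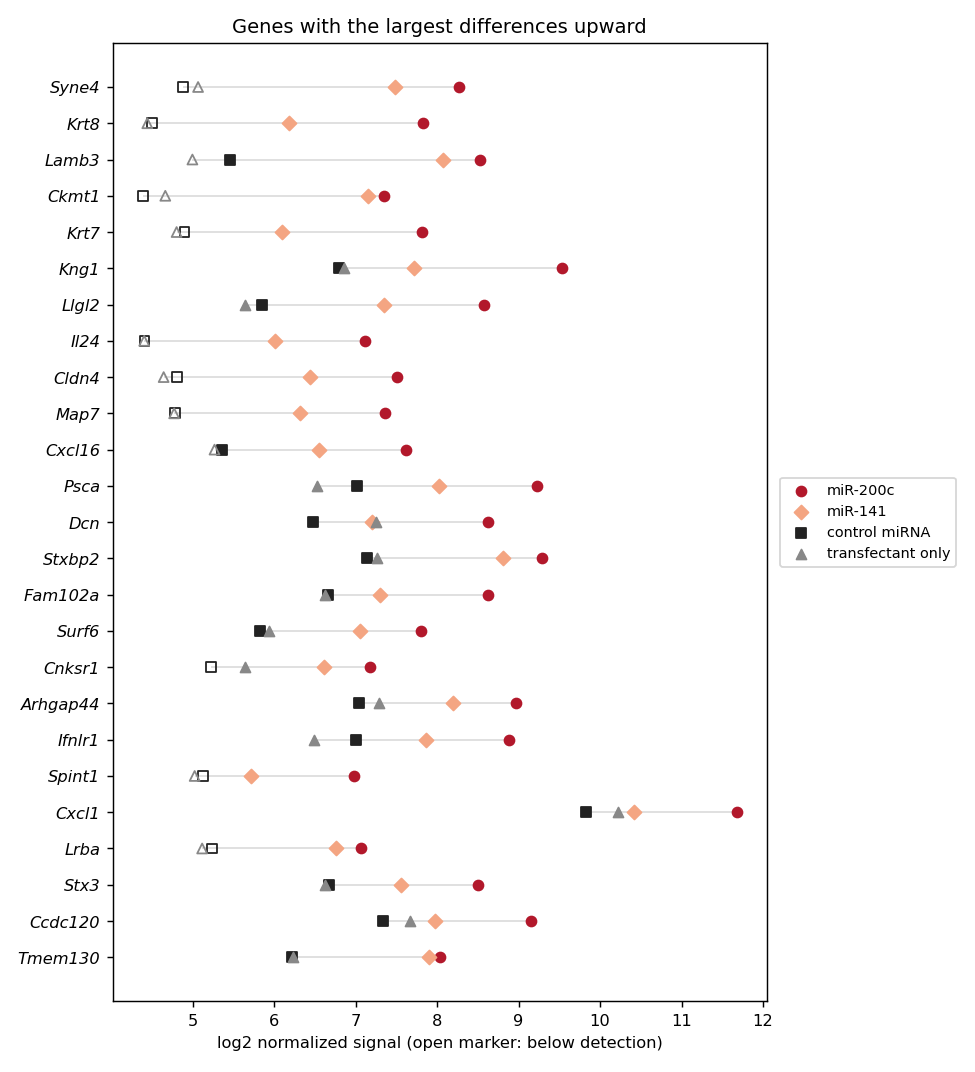
Log2 normalized signal in the 4 arrays, 1 array per group, with open markers below detection. Shown are the 15 largest upward differences among genes detected in both compared arrays and the 10 largest lower-bound folds among genes detected with miR-200c only. The miR-200c marker is the rightmost in each gene, the miR-141 marker mostly lies between it and the controls, and for Krt8 the values are 7.83 with miR-200c and 6.18 with miR-141.

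At the lower extreme, genes outside the target list included Aqp1, a water channel, at 5.72 with miR-200c, against 6.63 with miR-141, 8.07 with control miRNA and 7.44 with transfectant only. The glutamate receptor subunit gene Gria1 was at 7.34 with miR-200c, against 9.0 with miR-141, 9.26 with control miRNA and 9.36 with transfectant only. Vasn, whose product binds TGF-beta, stood at -1.88, the neonatal Fc receptor chain Fcgrt at -1.85 and brain creatine kinase (Ckb) at -1.85. Genes below detection with miR-200c were Serpinf1 (at least 3.16-fold lower), which encodes an anti-angiogenic serpin, the retinaldehyde dehydrogenase gene Aldh1a3 (at least 2.71-fold), Kcnip1 (at least 2.48-fold), Lrp4 (at least 2.37-fold), Rtl3 (at least 2.34-fold), Aqp4 (at least 2.25-fold) and Tmem150a (at least 2.02-fold). Fbxw5, part of a ubiquitin ligase, had the largest downward difference of all, -4.62, but this came from the control miRNA array. It was at 9.47 there and below detection in the other 3 arrays, and against transfectant only it stood at 0.36.

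Promoters of the genes called were compared for the E-box that ZEB1 and ZEB2 are known to bind, spelled CACCTG on one strand and CAGGTG on the other. The windows ran from 250 bases before to 50 after each gene start in RefSeq (GRCm38.p6), and 6143 of the 7464 genes had at least 1. The motif was present in a window of 32.4% of the higher genes (133 of 410), 15% of the lower genes (60 of 400) and 19.1% of the genes under 1.5-fold (1017 of 5333). Over all 27025 genes with a window the share was 22.6%, and it was 20.2% of all 32851 windows. Per window rather than per gene, the shares were 27.2% for higher, 14% for lower and 16.4% for the rest. The share grew with the difference, at 21.5% of genes between 0.25 and 0.585, 27.3% of genes between 0.585 and 1 and 47.2% of the 106 genes at 1 and above. Below -1 it was 14.1% of 99 genes. Among the higher genes 6.3% held the motif more than once in a window, against 1.8% of the lower genes.

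Other E-boxes were counted in the same windows. CAGCTG, which reads the same on both strands, was in 21.2% of the higher, 18.8% of the lower and 16.6% of all compared genes, and in 18.3% of all genes with a window. It was most frequent at both ends, in 23.6% of genes at 1 and above and 22.2% of genes below -1. CACGTG, also the same on both strands, was in 11.5% of the higher, 11.5% of the lower and 12.6% of all compared genes, and in 8.1% of all genes with a window. CATATG, the same on both strands too, was rare, in 3.4% of the higher (14 of 410), 1.8% of the lower (7 of 400) and 1.8% of the genes under 1.5-fold (95 of 5333), and in 4.5% of all genes with a window. Its ratio of higher genes to the rest is as large as that of the ZEB-type E-box, on few genes. The 4 motifs differ in their central bases, so no 2 can match at the same position, though they can overlap in part. The median G and C content of the windows was 59.5% at 1 and above, 61.3% between -0.25 and 0.25 and 61.7% below -1. Of the higher genes detected in both arrays 33.5% held the ZEB-type E-box, and of those detected in 1 array 30.4%. The lower genes had 12.5% when detected in both arrays and 22.3% when detected in 1, the second share being above that of all compared genes. With the authors' processed values the shares were 36.7% of higher and 12.7% of lower genes, and for genes past 1.5-fold against both controls 39.5% and 12.9%. A match is a string of letters, and no binding was measured.

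**Figure D4:**
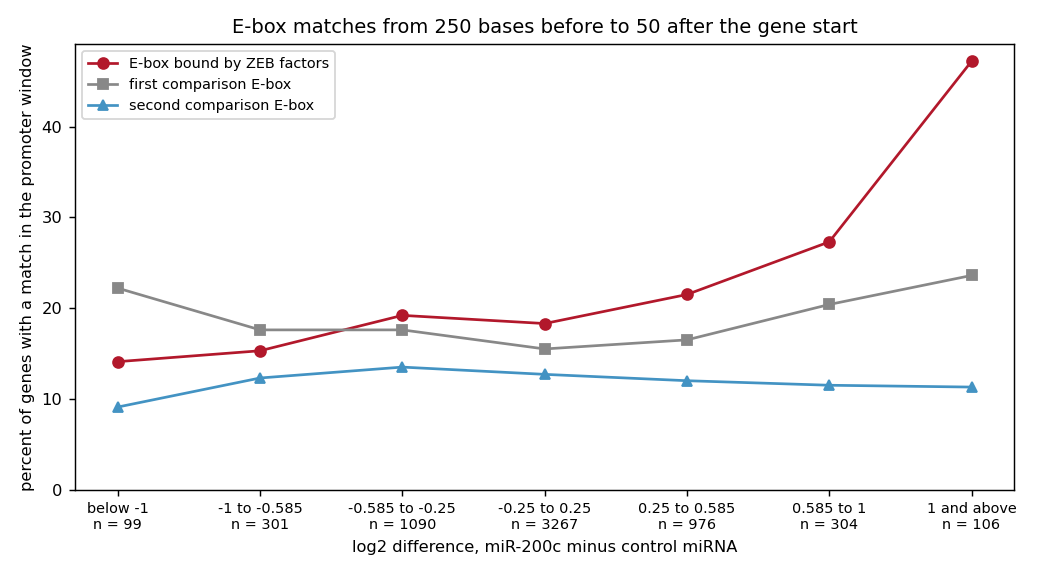
Percent of genes with a match in the promoter window (vertical axis) by log2 difference, miR-200c minus control miRNA (horizontal axis, with the number of genes in each bin), for the E-box bound by ZEB factors and for CAGCTG (first comparison E-box) and CACGTG (second comparison E-box). The ZEB-type E-box was found in 14.1% of genes below -1 and in 47.2% of genes at 1 and above.

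Among the 25 largest upward differences 17 genes had a window and 10 of these held the motif, while among the 25 largest downward differences it was 1 of 18. The 250 bases before the start are shown for 5 of the 10 higher genes with the motif, picked as epithelial and nuclear envelope genes. They were chosen among genes with a match, so they do not describe epithelial genes at large. Spint1, an epithelial marker among the same 25, had 1 window with 0 matches, and Ckmt1 had 2 windows with 0. Capitals mark CACCTG and CAGGTG only, and other E-boxes are in lower case. Lamb3 had 2 windows, of which the one with the motif is shown.
Krt8: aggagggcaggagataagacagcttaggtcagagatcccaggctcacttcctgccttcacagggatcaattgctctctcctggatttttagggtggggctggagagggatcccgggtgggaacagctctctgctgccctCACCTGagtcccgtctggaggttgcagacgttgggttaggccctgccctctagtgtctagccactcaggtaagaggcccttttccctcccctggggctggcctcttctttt
Krt7: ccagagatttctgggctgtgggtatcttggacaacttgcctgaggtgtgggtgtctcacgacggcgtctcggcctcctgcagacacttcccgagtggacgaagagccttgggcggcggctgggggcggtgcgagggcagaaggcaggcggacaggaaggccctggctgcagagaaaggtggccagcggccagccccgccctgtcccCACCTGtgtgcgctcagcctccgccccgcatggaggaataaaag
Lamb3: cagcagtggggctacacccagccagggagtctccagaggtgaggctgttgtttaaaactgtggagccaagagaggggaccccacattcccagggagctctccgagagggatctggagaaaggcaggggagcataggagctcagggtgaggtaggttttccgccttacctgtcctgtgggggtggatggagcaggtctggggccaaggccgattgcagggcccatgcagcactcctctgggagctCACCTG
Cldn4: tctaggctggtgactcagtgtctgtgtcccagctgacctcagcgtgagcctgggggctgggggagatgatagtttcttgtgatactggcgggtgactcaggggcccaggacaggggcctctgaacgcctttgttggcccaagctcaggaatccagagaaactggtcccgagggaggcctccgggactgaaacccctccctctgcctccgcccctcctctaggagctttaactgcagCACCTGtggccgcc
Syne4: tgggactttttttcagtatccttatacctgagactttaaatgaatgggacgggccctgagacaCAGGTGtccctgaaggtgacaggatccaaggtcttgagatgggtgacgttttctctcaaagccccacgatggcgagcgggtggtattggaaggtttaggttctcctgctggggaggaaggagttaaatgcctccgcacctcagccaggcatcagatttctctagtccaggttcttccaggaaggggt
These lie at chr15:102004343-102004592 (minus strand) for Krt8, chr15:101412153-101412402 (plus) for Krt7, chr1:193301993-193302242 (plus) for Lamb3, chr5:134946935-134947184 (minus) for Cldn4 and chr7:30314566-30314815 (plus) for Syne4. The E-box begins 111 bases before the gene start in Krt8, 44 in Krt7, 6 in Lamb3, 14 in Cldn4 and 187 in Syne4. Lamb3 and Cldn4 held another past the start, from base 5 and base 12.

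Immediate early genes and the phosphatases that act on MAP kinases, which respond within minutes to stress and growth factors, differed in both directions. Of 29 compared, 6 were higher and 6 lower (20.7% each), against 6.8% and 6.9% of all genes. The lower ones were the zinc finger factors Egr3 and Egr2, the phosphatase genes Dusp2, Dusp6 and Dusp5, and Spry4, an inhibitor of receptor tyrosine kinase signalling. Dusp2 was below detection with miR-200c and at least 1.40-fold lower. Egr2 was at 6.43 with miR-200c, against 7.06 with miR-141, 7.76 with control miRNA and 8.46 with transfectant only. Dusp6, which acts on ERK, was at 8.04 with miR-200c, against 8.41 with miR-141, 8.79 with control miRNA and 9.46 with transfectant only. In both genes transfectant only was the highest array, and the difference from it was larger, at -2.03 for Egr2 and -1.42 for Dusp6. The higher ones were Fos at 1.26, the stress factor Atf3 at 0.98, Dusp14 at 0.91, Nr4a2 at 0.71, Dusp1 at 0.65 and Dusp8 at 0.64. Fos was at 8.17 with miR-200c, against 6.91 with control miRNA and 7.89 with transfectant only, and its difference from transfectant only was 0.29. Dusp1 and Dusp8 stood at 0.41 and 0.35 there. Atf3 stood at 0.96 against transfectant only. Egr1 was at -0.43 and Jun at -0.04.

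Of 33 growth factor receptor and ligand genes 9 were lower (27.3%) and 0 higher (median -0.14), against 6.9% and 6.8% of all genes. Besides Flt1 and Pdgfrb, the lower ones were the ephrin gene Efnb1 at -1.09, Igf1 at -0.83, the collagen receptor Ddr1 at -0.77, the growth factor Ptn at -0.74, Egfr at -0.71, the VEGF co-receptor Nrp1 at -0.62 and Hbegf at -0.62. Ddr1, Nrp1 and Hbegf were under 1.5-fold against transfectant only, at -0.51, -0.58 and -0.30. A further probe of Egfr gave 0.30. Of 14 Notch and Wnt pathway genes, 5 were lower (35.7%) and 1 higher (7.1%), against 6.9% and 6.8% of all genes. Notch1 was below detection with both family members and at least 1.97-fold lower with miR-200c than with control miRNA, and the Notch-induced repressor genes Hey1 and Hes1 stood at -1.20 and -0.65, Hes1 at -0.58 against transfectant only. Numb, an inhibitor of Notch, was higher at 1.07, and at 0.54 against transfectant only. The Wnt pathway genes Dkk3 and Ccn4 were lower, at -0.94 and -0.76. Of 27 TGF-beta and BMP genes 4 were lower (14.8%) and 2 higher (7.4%, close to the share of all genes), with a median of 0.02. Lower were Vasn, Fstl1 at -1.09, the ligand gene Tgfb1 at -0.83 and the receptor gene Acvr1 at -0.62, and higher were the receptor gene Tgfbr2 at 0.82 and Bmp4 at 0.80. The p38, JNK and ERK kinases had 2 of 18 higher (11.1%), Mapk8 at 0.61 (0.40 against transfectant only) and Map3k3 at 0.59, and 0 lower. Mapk14, which encodes p38 alpha, was at 8.96 with miR-200c, against 7.97 with miR-141, 8.88 with control miRNA and 9.11 with transfectant only, so the miR-141 array was the one that stood apart.

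Chemokine, cytokine and NF-kB genes had 8 higher (30.8%) and 2 lower (7.7%) of 26, against 6.8% and 6.9% of all genes, with a median of 0.13. Of the higher ones, Il24 and Icam1 were below detection with control miRNA and were compared only through the miR-200c array. Over the 23 members detected in both arrays the median was 0.09. The neutrophil chemokine gene Cxcl1 was bright in every array, at 11.68 with miR-200c, against 10.42 with miR-141, 9.83 with control miRNA and 10.22 with transfectant only. Cxcl16 was at 7.61 with miR-200c, against 6.56 with miR-141 and 5.36 with control miRNA, and a further probe gave a difference of 1.58. Il24, a cytokine of the IL-10 family, was at least 3.45-fold higher, with a further probe at 1.33. The NF-kB-induced inhibitor Tnfaip3 stood at 1.14, Traf1 at 0.99, Nfkbib at 0.89 (0.51 against transfectant only) and Icam1 was at least 1.27-fold higher, while Nfkbia, another induced inhibitor, was at 0.23. Ptgs2 was called higher but stood at -0.06 against transfectant only. Lower were Cxcl12 at -0.85 and Vcam1 at -0.87, and a further probe of Vcam1 gave 0.32. Interferon-stimulated genes, which respond to double-stranded RNA, had 2 higher (15.4%) and 3 lower (23.1%) of 13, with a median of 0.01. Isg20 at 0.85 and Gbp3, at least 1.31-fold, were higher. Ifitm3 at -0.76, Irgm1 at -0.75 and Ifitm1 at -0.60, or -0.58 against transfectant only, were lower. Of 36 such genes on the array, 23 were below detection in both arrays.

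Stress response lists had medians between -0.12 and 0.00. Antioxidant and glutathione genes had 3 higher (9.1%) and 4 lower (12.1%) of 33, with a median of -0.11. Transketolase (Tkt), of the pentose phosphate pathway, was at 12.34 with miR-200c, against 11.75 with miR-141, 11.41 with control miRNA and 11.19 with transfectant only. Aldh3a1 stood at 0.78 and glutathione reductase (Gsr) at 0.59. Lower were the glutathione transferase Gsta4 at -1.28, Prdx2 at -0.74, Gpx8 at -0.72 and Blvrb, at least 1.23-fold. Gsta4 was at 8.30 with miR-200c, 9.58 with control miRNA and 8.72 with transfectant only, so the control miRNA array was the high one. Gsr at 0.29, Prdx2 at -0.56 and Gpx8 at -0.37 also lost the call against transfectant only. Hmox1, the inducible heme oxygenase, was at -0.57 and Keap1, which holds NRF2 in check, at -0.27. Unfolded protein and amino acid stress genes had 1 higher, the phosphatase regulator Ppp1r15a at 1.02, and 3 lower, Vldlr at -1.04, Chac1 at -0.93 and Xbp1 at -0.79, of 24 (12.5% lower). Heat shock genes had 0 of 9 called. Of 16 p53 targets 6.2% were higher and 12.5% lower, against 6.8% and 6.9% of all genes. The cell cycle inhibitor Cdkn1a was higher, at 7.05 with miR-200c against 6.11 with control miRNA and 5.52 with transfectant only. Phlda3 and Fas were lower at -0.79 and -0.61. Against transfectant only Phlda3 and Fas stood at -0.36 and -0.53, so neither passed 1.5-fold there.

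Cell division genes had medians slightly above that of all genes. The median was 0.18 over 30 G2/M genes, of which 4 were higher (13.3%) and 1 lower (3.3%), against 6.8% and 6.9% of all genes. It was 0.12 over 40 replication genes, of which 3 were higher (7.5%, close to the share of all genes) and 0 lower. The transcription factor E2f2 was at 7.33 with miR-200c, against 6.11 with miR-141, 6.23 with control miRNA and 5.61 with transfectant only. Depdc1b was the lower one, at 6.97 with miR-200c, against 8.77 with miR-141, 8.14 with control miRNA and 8.18 with transfectant only. Ect2, a regulator of cytokinesis, was at least 1.87-fold higher, while Smc2 and Kif4, also called higher, stood at 0.02 and 0.14 against transfectant only. Aurka, the other G2/M gene called higher, was at 0.48 there, and Mcm6 of the replication list at 0.42. Among 20 genes of miRNA biogenesis and silencing, Ago2, which encodes the slicing Argonaute, was higher at 0.61 (0.35 against transfectant only), and Ago3 and Prkra were lower at -0.78 and -0.72. Polycomb and DNA methylation genes had 1 of 13 higher (7.7%), Cbx7 at 0.73, and 0 lower, and published target Suz12 was not compared. Lysosomal genes had 1 higher (3.7%) and 4 lower (14.8%) of 27, and the lower Npc1, at -1.17, had further probes at -1.41 and 0.42. Tpp1 and Naglu, also lower, stood at -0.17 and -0.30 against transfectant only. Cholesterol and fatty acid synthesis genes had 0 higher and 3 lower (11.1%) of 27. The lower ones were Acaca at -0.86, Mvk at -0.68 and Pmvk at -0.59, or -0.54 against transfectant only.

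**Figure D5:**
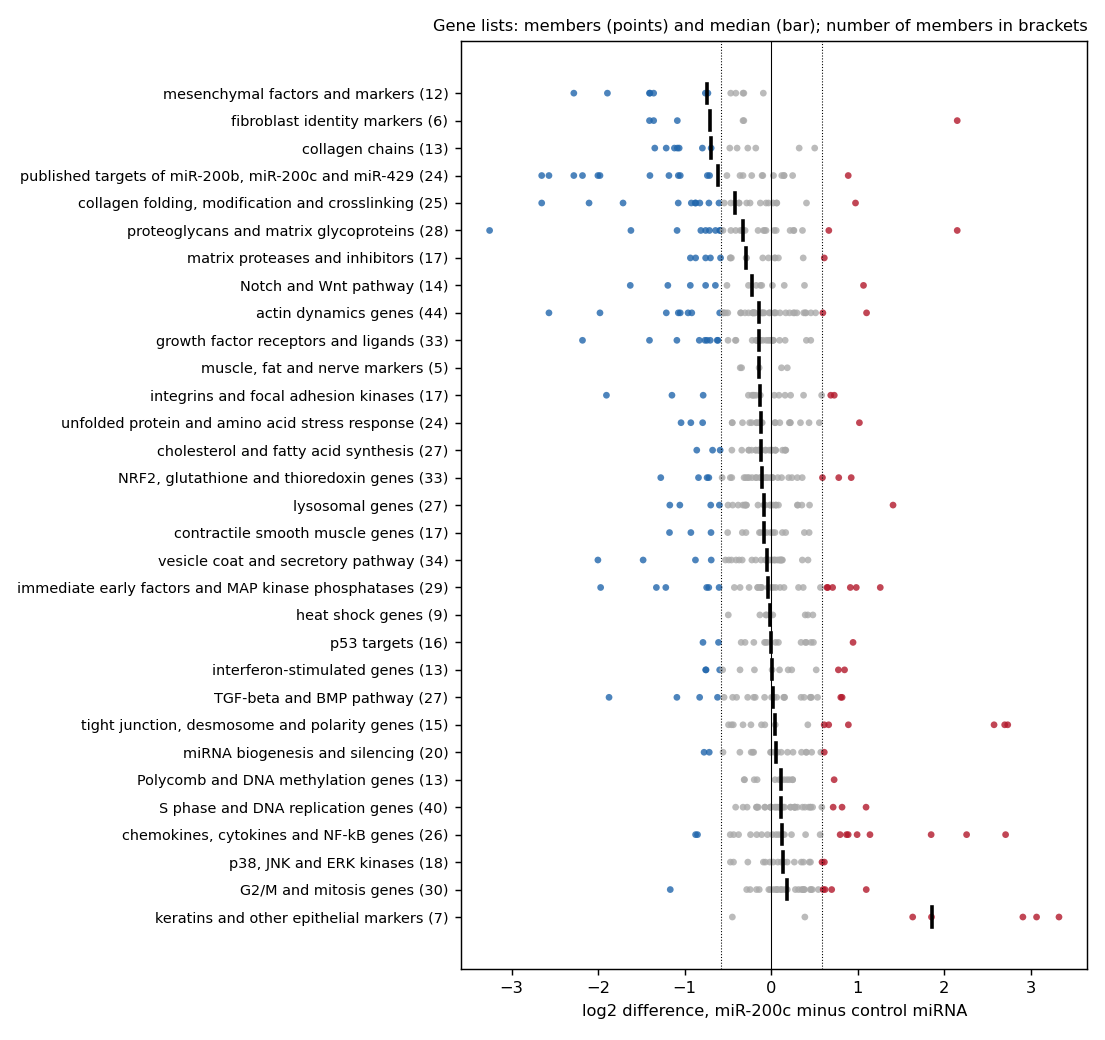
Log2 difference, miR-200c minus control miRNA, of each compared member of the gene lists with at least 5 compared members (points, red at least 1.5-fold higher, blue at least 1.5-fold lower, grey in between) with the list median (black bar). Medians run from -0.75 for mesenchymal factors and markers to 0.18 for G2/M genes, apart from the keratins and other epithelial markers, where only 7 of 33 were compared and the bar does not describe the list.

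Genes with more than 1 detected probe gave a second reading of the same RNA on the same array. The further probes share the sample with the main probe and say nothing of the spread between cultures. For 101 higher genes there were 121 further probes, of which 107 (88.4%) had a positive difference and 52 (43.0%) were at least 1.5-fold higher. For 101 lower genes there were also 121, of which 105 (86.8%) had a negative difference and 65 (53.7%) were at least 1.5-fold lower. Among genes under 1.5-fold 62.2% of 1961 further probes had the sign of the main probe. The widest gap among genes called was that of Slc44a1, with 0.95 for the main and -1.06 for the further probe. Next came Npc1, with -1.17 and 0.42, and Egr3, with -1.97 for the main and -0.46 for the further probe. Tenm4 had -1.05 for the main probe and -0.95 and 0.40 for 2 further probes, and Sox21 had 0.73 and -0.71.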

How the data were processed

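Gene expression was read on Illumina bead arrays, 1 per culture, so n is 1 in every group. The non-normalized table deposited by the authors gives each probe's average bead signal intensity, with a detection p-value against background, per the file headers. The submitters' processing notes name GenomeStudio without a version. The authors' processed intensity values are, in each array, a straight line of the raw signal to within 0.0113 units, on a linear scale without centring of genes. How those lines were chosen is not stated.

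The 4 arrays were normalized together with neqc (limma 3.58.1, R 4.3.3), which subtracts background estimated from the detection p-values, adds an offset of 16, equalizes the distributions and takes log2. Any change common to most genes is lost in this step. The offset shrinks differences of dim probes. Tables came from pandas 2.3.3 with numpy 2.4.6 under Python 3.11.15, and plots from matplotlib 3.10.9. The code was tested on simulated data.

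Of 46632 probes, 29976 had 1 gene symbol in the platform annotation, 10 several and 16646 none. Of the named probes 29921 matched a RefSeq table of GRCm38.p6. The probe brightest on average across the 4 arrays represents its gene. For a gene below detection in 1 compared array, the fold is a bound, from the brighter value over the higher of the dim value and the lowest detected log2 signal (5.37 with miR-200c, 5.33 with control miRNA). Value columns without a sample numbered 0.

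Genes were named by rule: the 15 largest differences each way among genes detected in both arrays, the 10 largest bounds each way, up to 8 called members of each of 33 gene lists, and 22 genes always given. Other members of the lists, and genes whose further probes disagreed most, are named after their values were seen. The comparison, the lists and the motif were chosen with earlier results of these data known. The alternatives concerned background correction, normalization, offset, detection, probe choice, size and control array.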

Additional observations from a re-analysis of the deposited data

How the results depend on the processing

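No paired analysis was possible because each group had 1 array. The counts of 510 higher and 514 lower genes depended on several choices. They were 251 and 258 without background correction, 270 and 284 with an offset of 50, 278 and 353 with the authors' processed values, and 140 and 134 at 2-fold. An alternative chosen after seeing the data, 1.5-fold against both control arrays, gave 293 and 329, and these comparisons share the miR-200c array. Median scaling gave 360 higher and 742 lower, so that 32.7% of the called genes were higher, against 49.8% with quantile normalization, and the balance of higher and lower genes is not read as a result. The other alternatives kept both counts within 1.5 times. The lower published targets numbered between 10 and 13 and the lower collagen chains between 5 and 7 under all alternatives. The higher epithelial markers numbered 5 or 6, except 2 when detection in both arrays was required. Of 170 named genes called, 134 still passed 1.5-fold without background correction and 141 against transfectant only. Among genes named by the rule, reversed values were Npc1 at 0.42 with the median of its probes, and Fbxw5 at 0.36 and Gpc4 at -0.31 against transfectant only. Other named genes with the opposite sign there were Ptgs2, Ssh3, Tenm4, H2ac18 and H2ac19. The causes were not tested. Signal over background limits dim genes, and the number of arrays limits all values.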

Other observations

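Probes without a gene name were left out of the comparison. Of 16646 such probes 2593 were detected in either array, and 238 (9.18%) were at least 1.5-fold higher and 145 (5.59%) at least 1.5-fold lower with miR-200c. The largest difference upward was that of probe ILMN_2708043, at 7.07 with miR-200c, against 4.99 with miR-141, 4.48 with control miRNA and 4.54 with transfectant only. The largest downward was that of ILMN_2675922, at 6.69 with miR-200c, against 8.25 with miR-141, 9.57 with control miRNA and 9.52 with transfectant only. ILMN_2674575 was at 6.21 with miR-200c, while the other 3 arrays lay between 8.74 and 9.05.

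Some called genes are neighbours in the genome (RefSeq order of protein-coding genes, GRCm38.p6). Among 3205 adjacent pairs with both genes compared, 30 had both genes higher, 19 had both lower and 25 had a higher and a lower gene. For scale, 6.83% of all compared genes were higher and 6.89% lower, so unrelated neighbours also give such pairs. Whether the counts exceed that was not tested. Pairs of related genes, named after their values were seen, included the kininogen genes Kng2 at 2.00 and Kng1 at 2.73, the keratin genes Krt80 at 0.82 and Krt7 at 2.91, the guanylate-binding protein genes Gbp3 at 0.78 and Gbp2b at 1.91, and the aldehyde dehydrogenase genes Aldh3a1 at 0.78 and Aldh3a2 at 0.64. Kng2, Krt7, Gbp3 and Gbp2b were among those below detection with control miRNA, so their differences rest on a value below detection. As bounds, Krt7 was at least 5.57-fold and Gbp3 at least 1.31-fold higher. Lower in both members were Col6a2 at -1.12 and Col6a1 at -1.21, the histone genes H2ac19 at -0.71 and H2ac18 at -0.73 (at 0.76 and 0.53 against transfectant only), and the MHC class I genes H2-T23 at -1.23 and H2-T22 at -0.61. Probes of close paralogs may read each other's transcripts, so the members of such pairs are uncertain as separate readings.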
